A study of Mus musculus with 6 samples.

Results

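A set of 6 genes was described in forskolin-treated mouse hippocampal neurons: Ucp1, Ucp2, Ppargc1a, Ppargc1b, Slc25a25 and Dio2, grouped here around the thermogenic cAMP programme of brown fat. They were found by symbol, 6 of the 37411 genes in the deposited count table, and they were chosen by their measured forskolin and DMSO values, known from earlier work on this table, so their differences between the groups are given as a description with no p-value. The neurons were primary cultures of hippocampi from newborn pups of the CD-1 IGS strain, kept to day 16 in vitro. Both groups came from such cultures and carried no genetic change that the labels name. The 3 forskolin libraries (numbered 4, 5 and 6) were from cultures given 50 µM forskolin, a plant diterpene that activates adenylyl cyclase, for 30 min, and the 3 DMSO libraries (1, 2 and 3) from cultures given the same volume of the solvent. Total RNA was measured by bulk RNA sequencing, in which fewer cells of a type and less RNA per cell cannot be told apart. The labels do not say whether the libraries of a group came from separate cultures, so p-values measure only the spread between these samples, which may be technical.

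In brown fat, noradrenaline raises cAMP, and protein kinase A then phosphorylates CREB, a factor that binds the cAMP response element and switches on early target genes. Ppargc1a and Ppargc1b encode the coactivators PGC-1alpha and PGC-1beta, which lack DNA binding of their own and work through nuclear receptors to raise mitochondrial genes. Ucp1 encodes the carrier that lets protons back across the inner mitochondrial membrane and so releases heat, and Dio2 the deiodinase that turns thyroxine into the active hormone triiodothyronine inside the cell. In brain, Dio2 is known mainly from astrocytes and tanycytes, Ucp2 from microglia and some neurons, and Ucp1 is classically a brown fat gene.

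The sequence before each start site is shown because it is one place where a cAMP response element can act. Elements further from the start were not searched. RefSeq (GRCm38.p6) gave 7 promoter windows for 5 of the 6 genes, and the window printed is the 250 bases before the annotated start, in the direction of transcription. Capitals mark a cAMP response element, either the full palindrome TGACGTCA or the short form TGACG, which reads CGTCA on the other strand. Both strands were searched, and each full element also contains overlapping short ones. The windows lie at chr8:83290098-83290347 (plus strand) for Ucp1, chr7:100493108-100493357 (plus) for Ucp2, chr5:51567726-51567975 (minus) for Ppargc1a, chr12:90739039-90739288 (minus) for Dio2 and chr2:32424067-32424316 (minus) for the start of Slc25a25 nearest to the end of the gene.
Ucp1: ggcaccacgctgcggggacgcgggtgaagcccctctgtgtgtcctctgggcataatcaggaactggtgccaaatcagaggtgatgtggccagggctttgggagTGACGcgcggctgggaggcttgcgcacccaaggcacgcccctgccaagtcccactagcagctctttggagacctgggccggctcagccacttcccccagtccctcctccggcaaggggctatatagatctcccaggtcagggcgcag
Ucp2: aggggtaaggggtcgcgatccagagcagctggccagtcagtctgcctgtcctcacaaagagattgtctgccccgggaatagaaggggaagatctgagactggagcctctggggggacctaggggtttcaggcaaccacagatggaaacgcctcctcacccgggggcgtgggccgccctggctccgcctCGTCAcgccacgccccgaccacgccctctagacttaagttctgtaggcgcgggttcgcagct
Ppargc1a: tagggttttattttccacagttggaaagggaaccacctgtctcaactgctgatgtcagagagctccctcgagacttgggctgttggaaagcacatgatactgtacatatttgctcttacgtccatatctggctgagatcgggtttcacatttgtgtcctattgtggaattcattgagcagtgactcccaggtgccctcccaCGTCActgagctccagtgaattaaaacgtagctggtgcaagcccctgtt
Dio2: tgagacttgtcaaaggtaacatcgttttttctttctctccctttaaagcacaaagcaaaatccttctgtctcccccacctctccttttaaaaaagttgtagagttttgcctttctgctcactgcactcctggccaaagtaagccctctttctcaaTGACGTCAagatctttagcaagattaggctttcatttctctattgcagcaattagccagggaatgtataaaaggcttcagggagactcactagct
Slc25a25: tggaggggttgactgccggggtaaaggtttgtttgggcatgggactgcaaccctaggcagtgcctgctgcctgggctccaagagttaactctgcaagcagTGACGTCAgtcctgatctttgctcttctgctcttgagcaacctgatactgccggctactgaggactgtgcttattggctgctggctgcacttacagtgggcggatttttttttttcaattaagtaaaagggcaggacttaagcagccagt
The full element stood from 95 to 88 bases before the start of Dio2 and from 150 to 143 bases before this start of Slc25a25. The short form stood from 147 to 143 bases before the start of Ucp1, from 62 to 58 before that of Ucp2 and from 49 to 45 before that of Ppargc1a. Of all 32851 RefSeq promoter windows of this length, 508 (1.55%) held the full element and 5836 (17.8%) the short form. The windows of the other 2 Slc25a25 starts, chr2:32431152-32431401 and chr2:32451471-32451720, held no match. A match is a run of letters and was not tested as a binding site.

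Library totals ran from 28342764 to 47548379 counts, and 16233 genes passed the filter on low counts, all 6 described genes among them. Levels are given as CPM, each gene's counts divided by the library total after TMM normalisation, an adjustment for differences in RNA composition. A gene is said to have risen or fallen where edgeR's quasi-likelihood test gave a Benjamini-Hochberg adjusted p below 0.05. By that rule 1.51% of tested genes changed, 0.172% being higher and 1.34% lower with forskolin, and the median over all these genes was a log2 fold change of 0.02. No gene passed with any 1 of libraries 1 to 5 left out or with a trend on GC content removed, 5698 passed without library 6, and at an unadjusted p below 0.05 the full fit had 3619, or 22.3% of tested genes. Forskolin library 6 stood apart from its group. Its log2 CPM correlated at 0.943 and 0.940 with forskolin libraries 4 and 5, and at 0.983 with DMSO library 3, while libraries 4 and 5 correlated at 0.987 with each other. Mitochondrial ribosomal RNA took between 14.0% and 23.7% of DMSO counts and between 26.9% and 33.3% of forskolin counts.

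By the same rule, 1 of the 6 genes, Ucp1, was called higher and 0 lower, against 0.172% and 1.34% of tested genes. All 3 forskolin libraries lay above every DMSO library for Ucp1, as they did for 10.3% of tested genes. For Ppargc1b all 3 lay below every DMSO library, as they did for 16.2% of tested genes. The groups overlapped for the other 4 genes. Because these contrasts chose the genes, nothing is read from those counts.

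**Figure D1:**
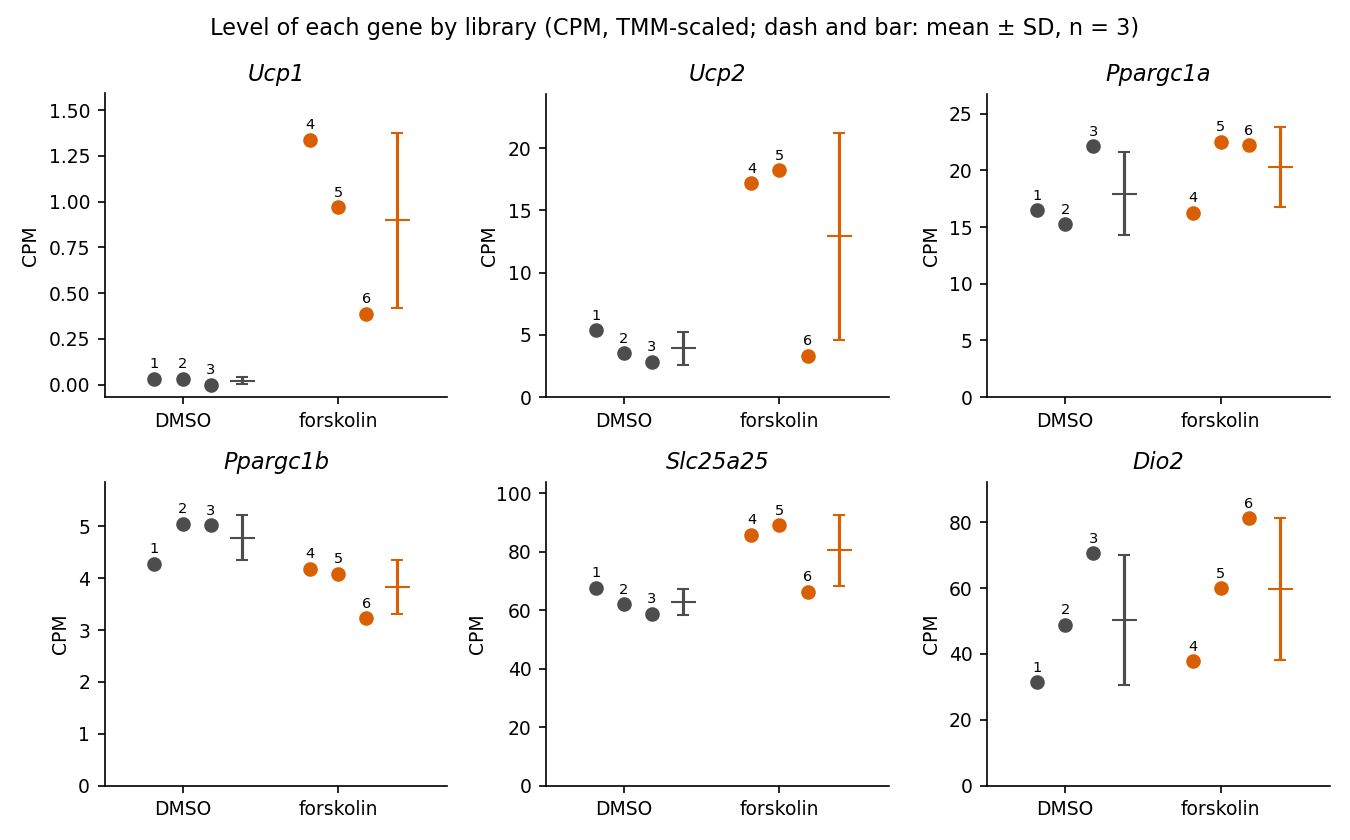
Level of each of the 6 genes in CPM on a linear vertical axis in 1 panel per gene, with 1 numbered point per library and a dash and bar for the group mean ± SD (n = 3). Ucp1 ran from 0 to 0.0328 CPM in the DMSO libraries and from 0.388 to 1.34 CPM in the forskolin libraries, and forskolin library 6 lay among the DMSO libraries for Ucp2.

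Ucp1 (ENSMUSG00000031710.4, chr8:83290352-83298452, plus strand, GRCm38) was close to absent from the DMSO libraries and was detected in each forskolin library. Its raw counts were 1, 1 and 0 in DMSO libraries 1 to 3, and 63, 33 and 13 in forskolin libraries 4 to 6. In CPM these were 0.0312, 0.0328 and 0 against 1.34, 0.970 and 0.388. Every forskolin library was above every DMSO library, library 4 was the highest, and library 6 was the lowest of the forskolin group. The group means were 0.0213 ± 0.0185 and 0.899 ± 0.479 CPM (SD, n = 3 each). Set against the 2 counts of the pooled DMSO libraries, the pooled 109 forskolin counts gave a ratio of 46.7 per unit of library size, with an exact 95% interval of 12.6 to 390 that covers counting error only. Taken singly against the pooled DMSO libraries, library 4 gave 65.7 (17.4 to 554), library 5 gave 47.6 (12.2 to 409) and library 6 gave 19.0 (4.31 to 174). These intervals share the same 2 DMSO counts, so their overlap does not compare the forskolin libraries with each other. The gene passed the filter on low counts only through the forskolin libraries. Its fitted log2 fold change of 5.24 ± 0.81 (SE) depends on the prior count added to the low DMSO counts and is no bound, and it was 5.59 without library 6.

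No annotated gene overlaps Ucp1. Its nearest neighbours are Tbc1d9, 17418 bases to the left, and Elmod2, 14180 bases to the right. Elmod2, which encodes a GTPase-activating protein for ARL2, was at 15.9, 14.6 and 19.0 CPM with DMSO and 26.5, 27.3 and 19.9 CPM with forskolin. These groups did not overlap (log2 fold change 0.57 ± 0.18 SE, edgeR adjusted p = 0.146). Tbc1d9 was at 87.2, 110 and 118 CPM with DMSO and 62.4, 62.6 and 113 CPM with forskolin, with forskolin library 6 among the DMSO values.

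Ucp2, whose product is a mitochondrial carrier related to UCP1 that exports C4 metabolites, differed among the forskolin libraries more than between any pair of DMSO libraries. It lies at chr7:100493337-100502020, and its raw counts were 172, 107 and 102 with DMSO and 810, 621 and 112 with forskolin. The CPM values were 5.37, 3.51 and 2.86 against 17.2, 18.2 and 3.34. Forskolin libraries 4 and 5 were above all DMSO libraries, while library 6 fell between DMSO libraries 2 and 3. Libraries 4 and 5 together averaged 4.53 times the DMSO mean, and library 6 was at 0.854 times that mean. The group means were 3.91 ± 1.30 and 12.9 ± 8.32 CPM (SD, n = 3 each), with a log2 fold change of 1.72 ± 0.61 (SE), or 2.16 without library 6. Ucp2 shares 305 exon bases with Dnajb13 on the opposite strand, and the strand setting of the counting is not given in the sources used here, so reads of that stretch cannot be assigned between them. Dnajb13 was at 20.5, 11.7 and 12.9 CPM with DMSO and 37.2, 28.1 and 9.94 CPM with forskolin, with library 6 the lowest of its group as for Ucp2.

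Slc25a25 encodes SCaMC-2, a calcium-regulated carrier that exchanges ATP-Mg for phosphate across the inner mitochondrial membrane. The gene lies at chr2:32414487-32451445 on the minus strand. Raw counts were 2167, 1892 and 2098 with DMSO and 4040, 3033 and 2224 with forskolin, which gave 67.7, 62.1 and 58.9 against 85.8, 89.1 and 66.4 CPM. Libraries 4 and 5 were above all DMSO libraries, and library 6 was below DMSO library 1, at 1.06 times the DMSO mean. The group means were 62.9 ± 4.46 and 80.4 ± 12.3 CPM (SD, n = 3 each), with a log2 fold change of 0.36 ± 0.14 (SE), or 0.46 without library 6. Slc25a25 shares 379 exon bases with Naif1 on the opposite strand, which was at 6.59, 6.79 and 6.31 CPM with DMSO and 7.20, 6.88 and 5.23 CPM with forskolin.

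The coactivator genes did not share a direction, and the sign of each flipped when a trend on GC content was removed (log2 fold changes of −0.15 for Ppargc1a and 0.0039 for Ppargc1b). Ppargc1a (chr5:51454250-51567726, minus strand) had raw counts of 528, 464 and 789 with DMSO and 765, 767 and 743 with forskolin. In CPM it was at 16.5, 15.2 and 22.1 against 16.2, 22.5 and 22.2. The groups overlapped: forskolin libraries 5 and 6 were close to DMSO library 3, and forskolin library 4 was close to DMSO library 1. The means were 17.9 ± 3.68 and 20.3 ± 3.53 CPM (SD, n = 3 each), with a log2 fold change of 0.18 ± 0.20 (SE), or 0.09 without library 6. The 4 unvalidated loci annotated inside Ppargc1a share 0 exon bases with it.

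Ppargc1b had raw counts of 137, 154 and 179 with DMSO and 197, 139 and 108 with forskolin. Its CPM values were 4.28, 5.05 and 5.02 against 4.18, 4.08 and 3.23. All 3 forskolin libraries were below all DMSO libraries, but the nearest values, 4.18 and 4.28 CPM, were closer to each other than the libraries within either group were spread. The means were 4.78 ± 0.438 and 3.83 ± 0.527 CPM (SD, n = 3 each), with a log2 fold change of −0.32 ± 0.21 (SE), or −0.23 without library 6. The direction was thus opposite to that of Ppargc1a, whose own difference was smaller than its SE. Pprc1, the gene of the related coactivator PRC, was at 11.4, 11.1 and 12 CPM with DMSO and 9.39, 10.1 and 10.3 CPM with forskolin. The edgeR estimate was −0.21 ± 0.14 on the log2 scale (SE, edgeR adjusted p = 0.391).

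Dio2 (chr12:90724552-90738438, minus strand) varied more within the groups than between them. Raw counts were 1004, 1490 and 2515 with DMSO and 1782, 2041 and 2716 with forskolin, and CPM values were 31.4, 48.9 and 70.5 against 37.8, 60.0 and 81.1. The highest library was 2.25 times the lowest with DMSO and 2.14 times the lowest with forskolin, and the groups overlapped across most of their range. The means were 50.3 ± 19.6 and 59.6 ± 21.6 CPM (SD, n = 3 each), with a log2 fold change of 0.25 ± 0.36 (SE), which turned to −0.06 without library 6. Dio2 shares 100 exon bases with Gm26512 on the opposite strand, so with the strand setting not given, reads of that stretch cannot be assigned between them. The other deiodinase genes were low. Dio1, of the second activating deiodinase, had 0 counts in all DMSO libraries and 1, 2 and 0 with forskolin. Dio3, whose product inactivates thyroid hormone, had counts of 17, 23 and 24 with DMSO and 10, 9 and 14 with forskolin. For Dio3 all 3 forskolin libraries were below all DMSO libraries, at −1.14 ± 0.37 on the log2 scale (SE, edgeR adjusted p = 0.160).

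Levels were compared between genes only after division by transcript length. The unit was counts per kilobase of the longest annotated transcript, scaled to a common sum over the 36174 genes that matched the GENCODE M21 annotation. In the DMSO libraries the order of these levels was Slc25a25 (36.0 ± 6.32), Dio2 (18.6 ± 7.15), Ppargc1a (6.08 ± 1.52), Ppargc1b (2.84 ± 0.192), Ucp2 (2.18 ± 0.954) and Ucp1 (0.0283 ± 0.0248), each a mean ± SD of n = 3. Ppargc1b and Ucp2 overlapped between libraries and cannot be ordered. Every other neighbouring pair was separate in all 3 libraries. Slc25a25 and Dio2 changed places when the union of all exons was used as the length (20 ± 3.79 and 21.2 ± 8.13). In the forskolin libraries the corresponding levels were 42.0 ± 3.56, 20.8 ± 8.88, 6.32 ± 1.25, 2.09 ± 0.179, 6.30 ± 3.87 and 1.08 ± 0.556. Ucp1 remained the lowest of the 6 in every library.

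**Figure D2:**
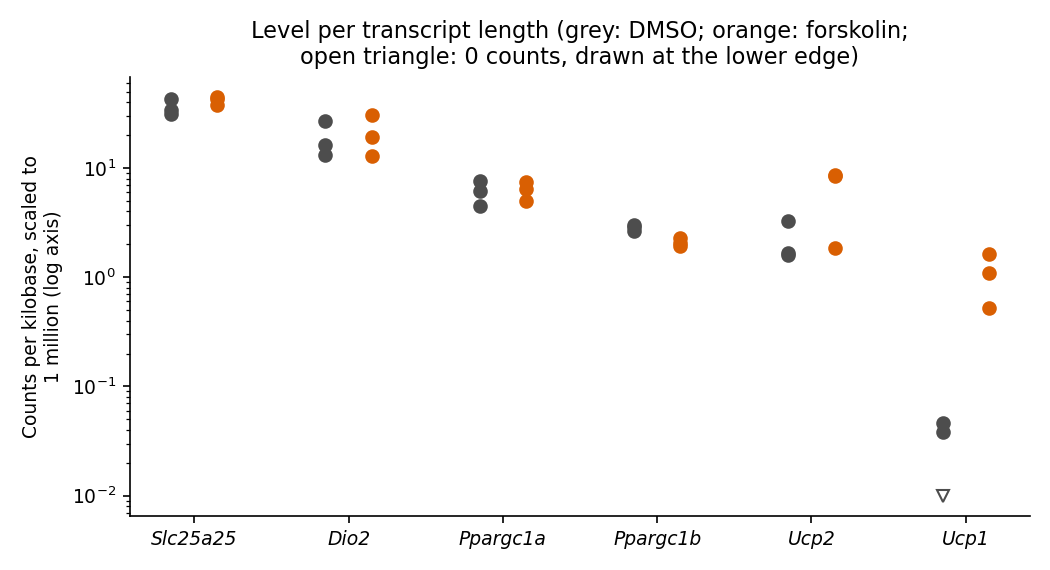
Length-scaled level of each gene on a logarithmic vertical axis, with 1 point per library, the groups side by side and an open triangle for a count of 0. Slc25a25 and Dio2 were the highest in both groups, Ucp1 the lowest, and Ucp2 spread over its widest range with forskolin.

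The genes did not vary together as a set over the 6 libraries. The points share libraries and groups, so the following Pearson correlations of log2 CPM (n = 6) are descriptions. Ucp1 had 1, 1 and 0 counts with DMSO, so its DMSO points are set largely by the added prior count, here and for the marker sums below. Ucp2 and Slc25a25 correlated at 0.98, Ucp1 and Slc25a25 at 0.90, Ucp1 and Ucp2 at 0.82, and Ppargc1a and Dio2 at 0.81. By contrast, Ucp1 and Dio2 correlated at 0.02, Ucp2 and Dio2 at −0.37, Ppargc1a and Ppargc1b at −0.40, and Ucp1 and Ppargc1b at −0.59. Over 14906 tested genes whose counts averaged 20 or more, those most like Ucp1 were Zfp184 (0.994), E130317F20Rik (0.992) and Mcmbp (0.99). Ucp2 was most like Fas, Fgl2 and Katnal2 (0.998, 0.998 and 0.997). For Slc25a25 the closest were Socs3 (0.998), Cxcr4 (0.997) and Csrnp1 (0.996). The genes closest to Ppargc1a were Nrp1, Dusp19 and Tenm1 (0.992, 0.991 and 0.99), those closest to Ppargc1b were Rassf10, Rbm14 and Atp6v1g1 (0.996, 0.994 and 0.992), and those closest to Dio2 were Gpr155, Nkrf and Olfm3 (0.995, 0.993 and 0.992). Many genes had r above 0.9: 1581 with Ucp2, 1202 with Slc25a25, 344 with Ucp1, 258 with Dio2, 250 with Ppargc1b and 188 with Ppargc1a.

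Markers of other cell types moved with Ucp2 and Slc25a25. All 12 microglia and macrophage markers were above every DMSO library in forskolin libraries 4 and 5, and 2 of 12 were in library 6. The share of all tested genes that did so in a single library is not given here, so these counts have no background beside them. Their summed level was 22.9 to 32.7 CPM with DMSO and 243, 423 and 25.4 CPM in forskolin libraries 4, 5 and 6. None of the 12 was at 0 in all libraries, and 0 of the 11 tested passed edgeR's test, against 1.51% of tested genes. Over the 6 libraries the marker sum correlated at 0.98 with Ucp2, 0.97 with Slc25a25 and 0.84 with Ucp1 (Pearson, log2 scale, a description). The part of these cells in the results was not tested. In library 6 the marker sum lay within the DMSO range, and the immediate cAMP targets described below had the lowest median of the forskolin group. That median was 0.54, against 1.68 and 1.62 in libraries 4 and 5. In library 6 Ucp1 stood at 18.2 times, Ucp2 at 0.854 times and Slc25a25 at 1.06 times their DMSO means. For Ucp1 this was 13 counts, set against a DMSO mean that rests on 2 counts. What these differences follow was not tested.

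Other marker sums also moved with these genes. The neuron sum correlated at −0.98 with Ucp2 and −0.95 with Slc25a25, the tanycyte and ependymal sum at 0.92 and 0.83, the oligodendrocyte lineage sum at 0.85 and 0.79, and the astrocyte sum at 0.83 and 0.79. The corresponding values for Ucp1 were −0.77, 0.55, 0.50 and 0.50. Their part in the results was not tested either. The 10 neuron markers summed to 3744 to 4939 CPM with DMSO and to 2874, 3082 and 4642 CPM in libraries 4, 5 and 6. The 10 astrocyte markers summed to 7124 to 7814 CPM with DMSO and 7105 to 8648 CPM with forskolin, so the cultures labelled as neurons also held abundant astrocyte RNA. Tanycyte and ependymal markers, 7 in all, summed to 937 to 1370 CPM with DMSO and 666 to 2093 CPM with forskolin, with Rax at 3 counts or fewer in every library. Of the 6 tested, 1 was called lower (Lhx2, log2 fold change −0.79, edgeR adjusted p = 0.0381). No marker outside the neuron and the tanycyte and ependymal lists passed the test. The 10 oligodendrocyte lineage markers summed to 822 to 913 CPM and 647 to 1560 CPM, and the 8 endothelial and mural markers to 49.6 to 125 CPM and 40.4 to 103 CPM, with Cldn5 at 3 counts or fewer throughout. Dio2 correlated at −0.95 with the endothelial sum, −0.63 with the tanycyte and ependymal sum, −0.41 with the astrocyte sum, −0.77 with the adipocyte sum and 0.54 with the neuron sum. Of the 10 brown and white adipocyte markers, Adipoq, Plin1, Lep and Cfd were at 3 counts or fewer in every library, and the sum was 20.5 to 22.8 CPM with DMSO and 14.5 to 23.9 CPM with forskolin. Prdm16, a regulator also found outside fat, made up most of that sum, at 17.3 to 19.4 CPM with DMSO and 12.2 to 18.9 CPM with forskolin.

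**Figure D3:**
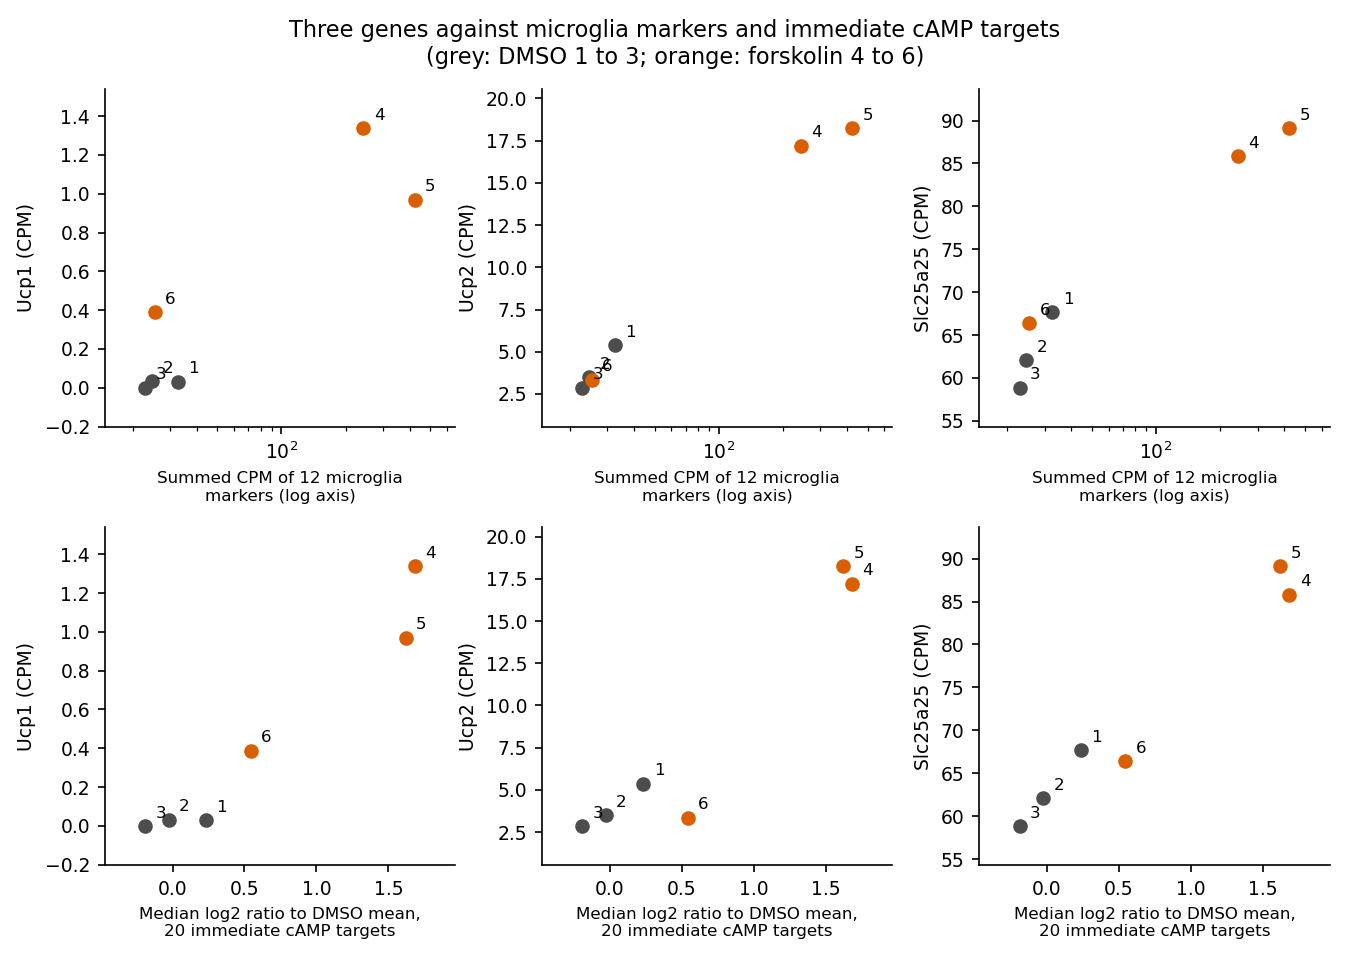
CPM of Ucp1, Ucp2 and Slc25a25 (linear vertical axes) against the summed CPM of 12 microglia and macrophage markers (upper panels, logarithmic axis) and the median log2 ratio of 20 immediate cAMP targets to the DMSO mean (lower panels), with 1 numbered point per library. Forskolin libraries 4 and 5 stand at 243 and 423 CPM of markers, away from the other 4 libraries, which lie between 22.9 and 32.7 CPM. Library 6 lies above the DMSO libraries in Ucp1. In the immediate targets it stands at 0.54, between DMSO libraries 1 to 3 (0.23, −0.03 and −0.19) and forskolin libraries 4 and 5 (1.68 and 1.62).

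The 6 genes were then set beside 7 lists of related genes that leave them out. Of the list genes, 9 passed edgeR's test, 8 higher (the low-count gene Trh among them) and 1 lower. Over all tested genes the shares were 0.172% higher and 1.34% lower. DESeq2 called 5.33% higher and 6.55% lower of the 14946 genes to which it gave an adjusted p, edgeR without forskolin library 6 called 16.5% higher and 17.1% lower of the 16941 genes it tested, and each list's counts under those settings are to be read against these shares. None of the 13 tested mitochondrial carriers related to the uncoupling proteins changed by edgeR's test (2 had an unadjusted p below 0.05, against 22.3% of tested genes), and their median log2 fold change was −0.16 beside 0.02 for all tested genes. DESeq2 called 0 of them higher and 1 lower, and edgeR without forskolin library 6 called 1 higher and 7 lower (16.5% and 17.1% of genes tested). Ucp3, the muscle uncoupling protein next to Ucp2 on the chromosome, was below the filter with counts of 5, 1 and 1 with DMSO and 5, 4 and 0 with forskolin. The brain carriers Slc25a14 and Slc25a27 had log2 fold changes of −0.14 and −0.17 (edgeR adjusted p = 0.733 and 0.635), and Slc25a30 had 0.45 (edgeR adjusted p = 0.298). Slc25a22, a mitochondrial glutamate carrier, was at 121, 156 and 132 CPM with DMSO and 79.6, 76.9 and 102 CPM with forskolin, which did not overlap (log2 fold change −0.66 ± 0.16 SE, edgeR adjusted p = 0.0997). Slc25a1, the citrate carrier, did not overlap either, at −0.43 (edgeR adjusted p = 0.152).

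Among ATP-Mg/phosphate carriers and mitochondrial calcium genes, 0 of 14 tested passed edgeR's test (5 had an unadjusted p below 0.05, against 22.3% of tested genes), with a median log2 fold change of −0.20. DESeq2 called 1 higher and 0 lower, and edgeR without library 6 called 2 higher and 7 lower (16.5% and 17.1% of genes tested). The carriers closest to Slc25a25 differed among themselves. Slc25a23 was at 129, 140 and 141 CPM with DMSO and 85.9, 99.4 and 123 CPM with forskolin (log2 fold change −0.41, edgeR adjusted p = 0.184). Slc25a24 was at 2.37, 1.67 and 2.02 against 4.31, 3.50 and 2.30 CPM (0.74, edgeR adjusted p = 0.219), with libraries 4 and 5 above all DMSO libraries and library 6 below DMSO library 1, as for Slc25a25. Slc25a41 was below the filter with counts of 8, 3 and 17 against 8, 6 and 1. Micu2, a regulator of the mitochondrial calcium uniporter, was at 22.2, 21.2 and 21.9 against 34.6, 32.3 and 25.2 CPM with no overlap (0.50, edgeR adjusted p = 0.139).

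None of the 19 tested genes of the brown fat programme passed edgeR's test, 1 had an unadjusted p below 0.05 (against 22.3% of tested genes), and their median log2 fold change was −0.01. Another 7 of the list's 26 genes, among them Cox8b, Elovl3 and the beta-3 adrenergic receptor gene Adrb3, were below the filter. DESeq2 called 0 of the tested genes, and edgeR without library 6 called 3 higher and 2 lower, close to the shares of 16.5% and 17.1% of genes tested. Cidea, of a lipid droplet protein found in brown fat, was at 2.84, 2.46 and 2.69 against 3.53, 3.88 and 1.79 CPM. Adrb3 had counts of 6, 4 and 9 with DMSO and 47, 21 and 4 with forskolin. Gk, the glycerol kinase gene, had groups that did not overlap, at 0.39 on the log2 scale (edgeR adjusted p = 0.171).

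None of the 26 PGC-1 partners and nuclear regulators passed edgeR's test (4 had an unadjusted p below 0.05), and 0 of 21 PGC-1 target genes did (also 4), against 22.3% of tested genes. Their median log2 fold changes were −0.01 and −0.19. DESeq2 called 0 higher and 1 lower among the partners and 1 higher and 1 lower among the targets, and edgeR without library 6 called 3 higher and 6 lower, and 2 higher and 9 lower (16.5% and 17.1% of genes tested). Perm1, a muscle regulator induced by PGC-1, was at 0.562, 0.853 and 0.701 CPM with DMSO and 1.47, 1.62 and 1.1 CPM with forskolin (log2 fold change 0.98, edgeR adjusted p = 0.145). Esrra, the estrogen-related receptor that PGC-1alpha binds, was at 25.8, 25.1 and 24.0 against 19.8, 17.1 and 11.1 CPM (−0.64, edgeR adjusted p = 0.168). Among the targets, Cpt1c, a brain carnitine palmitoyltransferase, and Nefh, the heavy neurofilament, did not overlap between groups, at −0.47 (edgeR adjusted p = 0.103) and −0.43 (0.223).

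Of 22 tested genes of thyroid hormone activation, transport and response, Nrgn fell, and Trh passed the test upward, while 10 had an unadjusted p below 0.05 (against 22.3% of tested genes). The list's median was −0.001 on the log2 scale, DESeq2 called 1 gene higher (Wsb1, as it gave Trh no adjusted p) and 2 lower, and edgeR without library 6 called 5 higher and 6 lower (16.5% and 17.1% of genes tested). Trh, which encodes thyrotropin-releasing hormone and is a known CREB target, had counts of 2, 0 and 0 with DMSO and 36, 34 and 17 with forskolin. It passed the filter on low counts only through the forskolin libraries, so its call supports nothing here. The pooled ratio was 37.3, with an exact 95% interval of 10.01 to 312 for counting error only (edgeR adjusted p = 0.0443). Both DMSO counts were in library 1, and the fitted log2 fold change of 4.99, which depends on the prior count, was 7.79 without that library and 4.41 to 7.79 over 13 alternatives. The call was lost with RLE factors, with the GC trend removed (5.13, edgeR adjusted p = 0.171) and without any 1 of libraries 1 to 5. Nrgn, of the postsynaptic calmodulin-binding protein neurogranin, was at 109, 146 and 113 CPM with DMSO and 50.7, 59.1 and 47.1 CPM with forskolin, a log2 fold change of −1.23 ± 0.16 (SE, edgeR adjusted p = 0.0306). With a GC content trend removed, its value was −0.84 (edgeR adjusted p = 0.171), and its call too was lost without any 1 of libraries 1 to 5. Mbp, the myelin gene in the same list, was at 41.6, 38 and 42.8 CPM with DMSO and 210, 387 and 31.6 CPM in libraries 4, 5 and 6.

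Of the 20 immediate cAMP targets, 7 passed edgeR's test upward and 0 downward (0.172% and 1.34% of tested genes), and 12 of the 20 had groups that did not overlap, all upward (10.3% of tested genes). At an unadjusted p below 0.05 there were 14 (against 22.3% of tested genes). Their median was 1.39 on the log2 scale, DESeq2 called 13 higher and 0 lower (5.33% and 6.55% of genes tested), and edgeR without library 6 called 17 higher and 1 lower (16.5% and 17.1%). The 7 were Fos, Nr4a2, Fosb, Egr2, Dusp1, Rgs2 and Btg2, transcription factors, a phosphatase, a G-protein regulator and an antiproliferative gene. Fos was at 186, 109 and 101 CPM with DMSO and 831, 902 and 448 CPM with forskolin (log2 fold change 2.46 ± 0.36 SE, edgeR adjusted p = 0.0375). Rgs2 was at 42.7, 45.8 and 43.4 against 144, 133 and 121 CPM (1.59 ± 0.11 SE, edgeR adjusted p = 0.0188). Nr4a1 was at 37.6, 19.3 and 16.6 against 137, 138 and 61.6 CPM (2.20, edgeR adjusted p = 0.0652), and Sik1 at 17.7, 18.5 and 15.4 against 61.7, 58.3 and 24.5 CPM (1.49, edgeR adjusted p = 0.0876). Per1 was at 37.3, 35.2 and 31.9 against 50.7, 44.8 and 30.1 CPM, with overlap (0.27, edgeR adjusted p = 0.448). Relative to the DMSO mean, the list's median on the log2 scale stood at 1.68, 1.62 and 0.54 in libraries 4, 5 and 6. DMSO libraries 1, 2 and 3 stood at 0.23, −0.03 and −0.19. In libraries 4, 5 and 6, 17, 18 and 14 of the 20 genes were above all DMSO libraries, with no share over all tested genes given for single libraries. The list's median was thus lowest in library 6 of the forskolin group, but not every gene followed it: Egr2, at 20.9, 30.6 and 22.1 CPM, was higher in library 6 than in library 4.

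**Figure D4:**
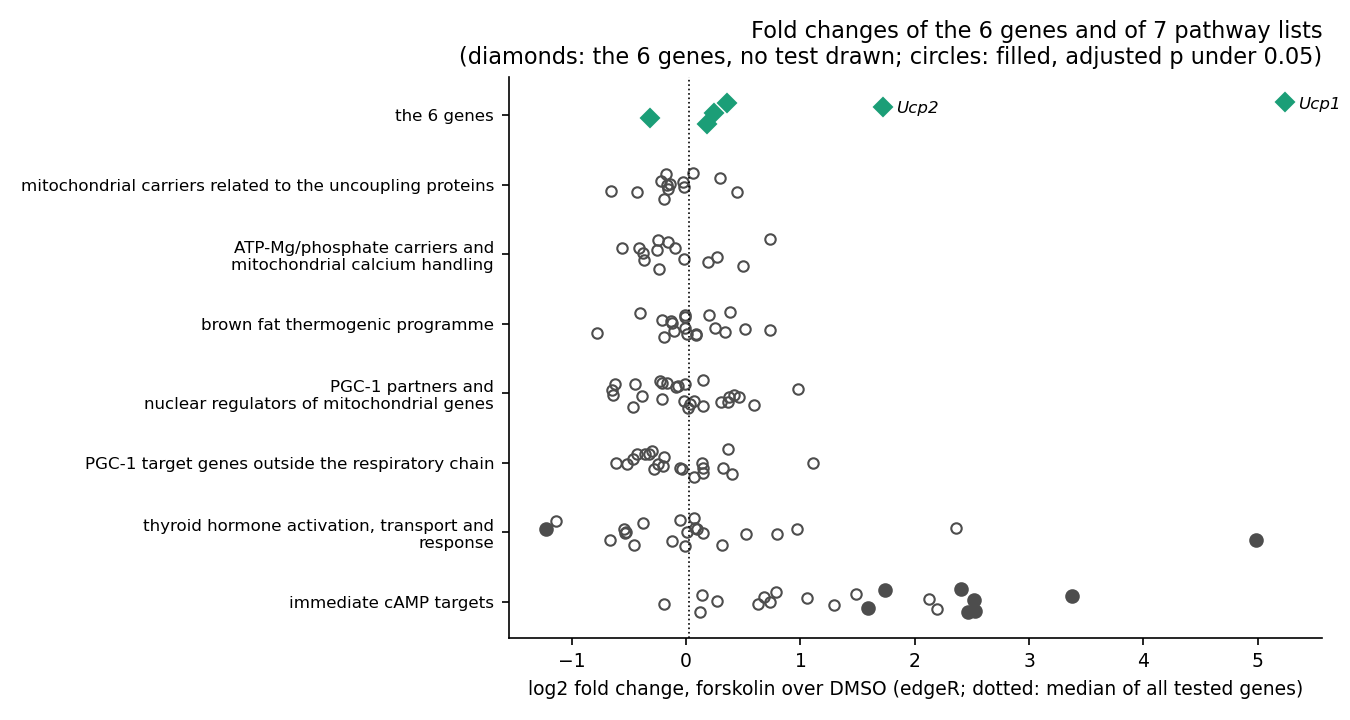
Log2 fold change of forskolin over DMSO for the 6 genes (diamonds) and for the tested genes of 7 lists (circles, filled where the edgeR adjusted p was below 0.05). Ucp1 and Ucp2 stand at 5.24 and 1.72, the other 4 genes lie between −0.32 and 0.36, and filled circles appear in the immediate cAMP target and thyroid hormone lists.

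The full cAMP response element stood before Btg2 and Dusp1, 2 of the 16 immediate targets with a promoter in the RefSeq table, before Smdt1 (1 of 8 ATP-Mg and calcium genes) and Wsb1 (1 of 13 thyroid genes), before none in the other 4 lists, and before 478 of all 27025 genes in that table. The short form was not counted over the lists. Of the 6 genes, Dio2 and Slc25a25 held the full element. The authors' deposited table of genes that differed with forskolin lists 132 genes, 0 of the 6 described here and 12 of the list genes, Fos (2.44) and Nr4a2 (2.60) among them on its log2 scale. Its values run from 1.5 to 4.33, so it holds increases alone, and 4 of the 6 genes lay below that range here. Ucp1, at 5.24, lay above the range and Ucp2, at 1.72, within it, and both are absent from the authors' table too.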

How the data were processed

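The 6 libraries, 3 per group, were analysed by bulk RNA sequencing of total RNA. The authors deposited whole-number counts per gene, and a table of log2 fold changes of selected genes, which the authors' deposited table gives without a stated test. Per the submitters' processing notes, Salmon, DESeq and GRCm38 were used, with no role or version given. The annotation and strand setting are not given in the sources used here. The deposited table has 0 columns of other samples.

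Groups came from the labels. Counts were filtered (filterByExpr, minimum count 10, minimum total 15), scaled by TMM and tested with edgeR 4.0.16 (quasi-likelihood, R 4.3.3, limma 3.58.1), with Benjamini-Hochberg adjustment over all 16233 tested genes and a threshold of 0.05. CPM are edgeR's, and log2 CPM used a prior count of 2. Ratios of low counts have exact 95% conditional intervals. DESeq2 1.42.0 and 14 other settings, 15 in all, were alternatives. One of these, leaving out forskolin library 6 with the GC trend removed, was chosen after seeing the data. The fit was tested on simulated data. The library totals of 28342764 to 47548379 counts set the precision: a count of 0 allows up to 3 counts in a library.

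The 6 genes, the 7 lists and the marker lists were chosen with earlier results of these data known. Named genes were the 6, their closest relatives, Fos, Nr4a1, Sik1 and Per1, list genes that passed the test, the 2 non-overlapping genes with the largest fold change in each list, and the 3 most correlated genes of each of the 6. Cidea, Adrb3, Cox8b, Elovl3, Mbp, Wsb1, Smdt1, the single cell type markers and neighbouring or overlapping genes were added after their values were seen. Coordinates are GENCODE M21 (GRCm38), and promoters are RefSeq GRCm38.p6. No coordinates or promoter are given for Ppargc1b.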

Additional observations from a re-analysis of the deposited data

How the results depend on the processing

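No paired analysis was possible because replicate numbers run from 1 to 6 over the groups and none occurs in both. The number of genes called, 245, was 1775 with DESeq2 (796 higher, 979 lower), 6795 with limma-voom and library quality weights (3403 and 3392), 137 with RLE factors (24 and 113) and 0 with the GC trend removed (1918 at an unadjusted p below 0.05). Leaving out a library gave 0 to 5698 calls: 5698 without forskolin library 6 (2796 and 2902) and 0 without any other, where 1945 to 3216 genes had an unadjusted p below 0.05. Without library 6 and with the GC trend removed it was 5626 (2569 and 3057). The 9 list genes called became 21 with DESeq2, 74 with quality weights, 0 with the GC trend removed (32 at an unadjusted p below 0.05), 0 to 71 on leaving out a library (71 without library 6, otherwise 0) and 70 without library 6 with the GC trend removed. The cause was not tested. The other settings stayed within 1.5 times. The 9 list genes called kept their direction with the GC trend removed. Their log2 fold changes were then 2.40 (Btg2), 2.66 (Dusp1), 1.79 (Egr2), 2.54 (Fos), 3.60 (Fosb), 2.46 (Nr4a2), −0.84 (Nrgn), 1.36 (Rgs2) and 5.13 (Trh). In the full fit they were, in this order, 2.40, 2.52, 1.74, 2.46, 3.38, 2.53, −1.23, 1.59 and 4.99.

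Over its 14 alternatives with a value Ucp1 had a log2 fold change of 4.66 to 5.64. Over 15 alternatives Ucp2 ran from 1.43 to 2.32 and Slc25a25 from 0.24 to 0.47. Ppargc1a, at −0.29 to 0.35, was negative with the GC trend removed (−0.15) and when library 6 was also left out (−0.29). Ppargc1b, at −0.42 to 0.02, was above 0 in the same settings (0.0039 and 0.02). Dio2, at −0.31 to 0.56, was negative without library 6 (−0.06) and with the GC trend then removed (−0.31). Depth limits the ratio of Ucp1, which rests on 2 counts over 3 DMSO libraries.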
